A study of Rattus norvegicus with 6 samples.

Results

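The genes described here are the ligands and receptors of the tumour necrosis factor (TNF) superfamily together with the TRAF adaptors, the NF-kB subunits and inhibitors, the Tnfaip genes and the death and survival adaptors that act below the receptors. They were chosen by name: a probe set entered when its single annotated symbol began with Tnfrsf, Tnfsf, Tnfaip, Traf or Nfkb, was Rel, Rela or Relb, or was 1 of 13 further symbols such as Tnf, Fas, Birc3 or Casp8. The rule uses symbols alone, although it was written with earlier results of these arrays known. The rule found 81 of 31042 non-control probe sets and 61 of the 14217 genes that these probe sets name. The 61 genes were 10 ligands, 17 receptors, 11 TRAF genes, 9 NF-kB subunits and inhibitors, 8 Tnfaip genes and 6 adaptors.

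Total RNA from cloned rat cell strains was hybridised to 6 Affymetrix arrays. TDECC (3 arrays, labelled BDEsp-TDECC) is a clonal cholangiocarcinoma strain, and TDESM (3 arrays, labelled BDEsp-TDESM) is a clonal cancer-associated fibroblast strain with Acta2 overexpression. Both came from orthotopic tumours that formed after BDEsp cells, rat cholangiocytes that had transformed spontaneously, were placed in the bile duct of young adult male Fischer 344 rats. Each strain is 1 clone, so strain and cell type cannot be told apart. All 6 arrays carry the same text on a 3-dimensional co-culture in collagen type I gel and on the TGF-beta inhibitors SB 431542 and LY2157299, and the labels do not state which cells were treated. Nothing in the labels says that the 3 arrays of a strain came from separate cultures, so the p-values measure the spread between arrays, which may be technical.

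TNF superfamily ligands are trimeric proteins on the cell surface or in solution that cluster their receptors. Receptors with a death domain recruit Tradd or Fadd, Ripk1 and Casp8, and others recruit TRAF proteins directly. Both routes can activate the IKK kinases, which mark the inhibitor IkB-alpha (Nfkbia) for destruction and let the NF-kB dimers of Rela and Nfkb1 enter the nucleus, while a slower route works through Nfkb2 and Relb. Nfkbia, Tnfaip3 and Birc3 are themselves classic NF-kB target genes and act as brakes or survival factors in the same pathway. In the biliary tree this signalling is best known from inflammation and from the survival of transformed cholangiocytes.

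The arrays carried the marker patterns that the strain labels name. All 8 measured epithelial markers were lower in TDESM, with Krt19 at a mean log2 value of 14.33 in TDECC and 3.58 in TDESM. All 12 measured fibroblast markers were higher there, with Col1a2 at 3.69 and 14.41, and Acta2 read 6.02, 6.10 and 7.71 on the TDECC arrays and 11.53, 11.67 and 11.60 on the TDESM arrays. Of 18 leukocyte markers 1 was higher (Gzmb) and 1 lower (S100a9), their summed log2 values ran from 79.79 to 84.46 in TDECC and from 78.32 to 81.27 in TDESM, and the pan-leukocyte gene Ptprc was at 3.68 and 3.80. Of 9 endothelial markers 1 was higher (Erg) and 1 lower (Pecam1), with summed values of 38.08 to 38.94 and 38.92 to 39.33. Array medians over all probe sets lay between 5.80 and 5.86. Across the 14217 genes, pairs of TDECC arrays correlated at 0.968 to 0.975 and pairs of TDESM arrays at 0.995 to 0.998.

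More of the 61 genes were lower in the fibroblast strain than higher. With limma and a Benjamini-Hochberg adjusted p below 0.05 over all 14217 genes, 30 genes (49.2%) passed, 9 of them higher in TDESM (14.8%) and 21 lower (34.4%). Over all genes 42.7% passed, 22.1% higher and 20.6% lower, so the lower genes were above their background share and the higher genes below theirs. At 2-fold or more, 18 of the 61 genes were lower (29.5%, against 12.1% of all genes) and 6 were higher (9.84%, against 13.4%). The median log2 difference (TDESM minus TDECC) was -0.22 for the 61 genes and 0.003 for all genes. The values of the strains did not overlap for 37 of the 61 genes (60.7%), against 53.6% of all genes.

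Each difference is relative to the deposited scaling, which gives every array nearly the same median. Centring instead on 24 spiked poly-A control probe sets moved the median of all genes by -1.22 log2 units. It gave 5 higher and 48 lower among the 61, while 6.32% of all genes were higher and 76.5% lower. The share of lower genes among the 61 was then near that of all genes. Centring on 20 housekeeping genes moved the median by 0.25 and gave 13 higher and 19 lower, against 29.4% higher and 14.6% lower of all genes. Of all calls in the array-wide fit, 51.7% were higher, against 66.8% after housekeeping centring and 7.63% after poly-A centring. An exact permutation test of a single gene with 3 arrays against 3 cannot give a two-sided p below 0.1. In a strain as a whole, fewer cells that express a gene and less RNA per cell cannot be told apart.

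**Figure D1:**
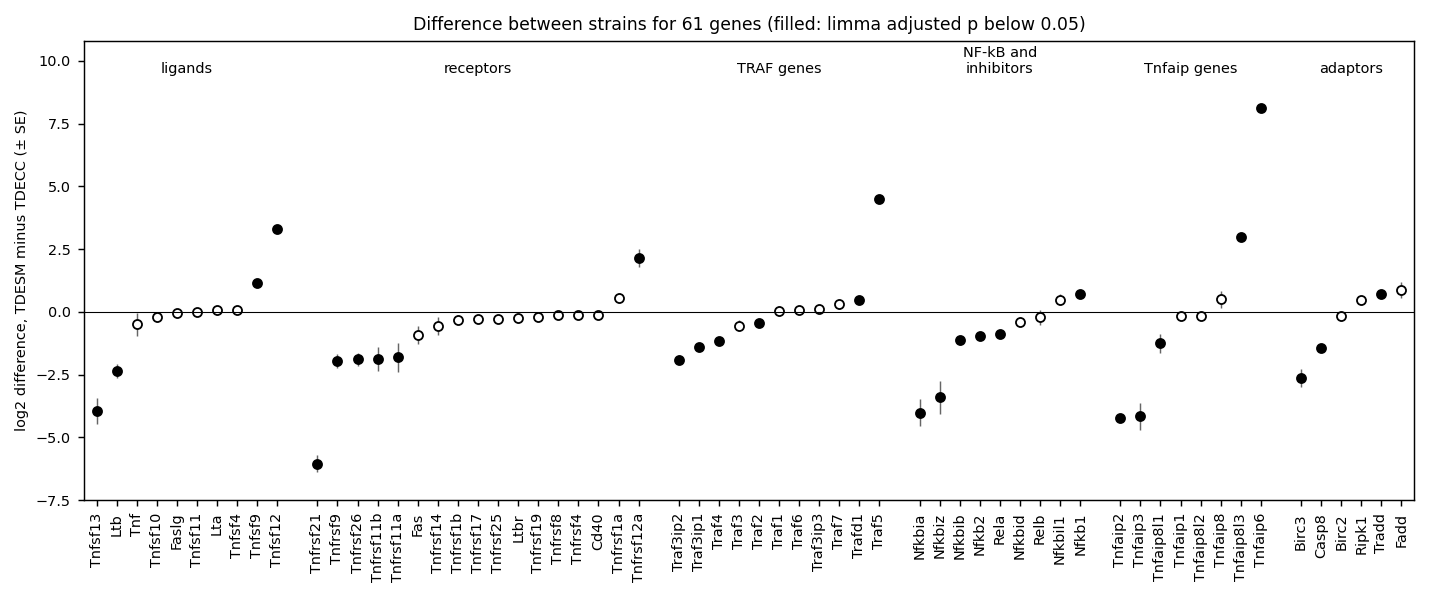
Log2 difference between TDESM and TDECC (vertical axis, TDESM minus TDECC, ± SE, n = 3 arrays each) for the 61 genes, ordered within roles. Filled points have a limma adjusted p below 0.05, and they run from -6.04 for Tnfrsf21 to 8.14 for Tnfaip6 on the deposited scale.

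Among the 10 ligands, Tnfsf13 and Ltb were lower in TDESM and Tnfsf12 and Tnfsf9 were higher. Both counts were near what the 20.6% lower and 22.1% higher of all genes would give. Values are given in the order of replicates 1, 2 and 3 here and below. Tnfsf12 encodes TWEAK, the ligand of Tnfrsf12a (Fn14). It read 5.39, 5.02 and 5.60 on the TDECC arrays and 8.58, 8.58 and 8.75 on the TDESM arrays, with no overlap. Its log2 difference was 3.30 (SE 0.17, limma adjusted p = 7.73e-06). Tnfsf13 encodes APRIL, a ligand best known for B-cell and plasma-cell survival. Its values were 7.36, 9.55 and 7.98 in TDECC and 4.08, 4.37 and 4.55 in TDESM, so that even the lowest TDECC array stood above every TDESM array. The difference was -3.96 (SE 0.52, limma adjusted p = 8.23e-04). Tnfsf12 and Tnfsf13 are adjacent protein-coding genes in the RefSeq GRCr8 annotation and differed in opposite directions.

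Ltb, the membrane partner in lymphotoxin heterotrimers that bind Ltbr, read 5.29, 6.41 and 6.19 in TDECC and 3.58, 3.75 and 3.47 in TDESM, and the strains did not overlap. The difference was -2.36 (SE 0.29, limma adjusted p = 5.80e-04). Tnfsf9 encodes 4-1BB ligand, which co-stimulates T cells through Tnfrsf9. It read 5.01, 4.72 and 4.71 against 5.71, 6.02 and 6.12, a difference of 1.14 (SE 0.16, limma adjusted p = 0.00115) that became -0.08 after poly-A centring.

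Tnf itself gave no single answer. The brightest of its probe sets, which stood for the gene, read 5.83, 5.60 and 7.47 in TDECC and 5.81 on each TDESM array (difference -0.49, SE 0.46, limma adjusted p = 0.446). Without TDECC replicate 3 the difference was 0.10. The other Tnf probe set read 6.41, 4.85 and 8.53 against 2.89, 2.94 and 2.97, and its difference of -3.66 passed in the fit over probe sets (limma adjusted p = 0.0113). The mean of both gave -2.08 (limma adjusted p = 0.0361). On both probe sets TDECC replicate 3 was the highest of the 6 arrays.

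The remaining ligands, Tnfsf10 (TRAIL), Faslg, Tnfsf11 (RANKL), Lta and Tnfsf4 (OX40 ligand), read below 5 on all 6 arrays, and their differences lay between -0.20 and 0.09. Arrays of this type give no detection call in the deposited values. For comparison, probe sets for the control TrpnX, a transcript not present in rat RNA, read 2.80 to 3.53 in TDECC and 2.87 to 3.23 in TDESM.

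**Figure D2:**
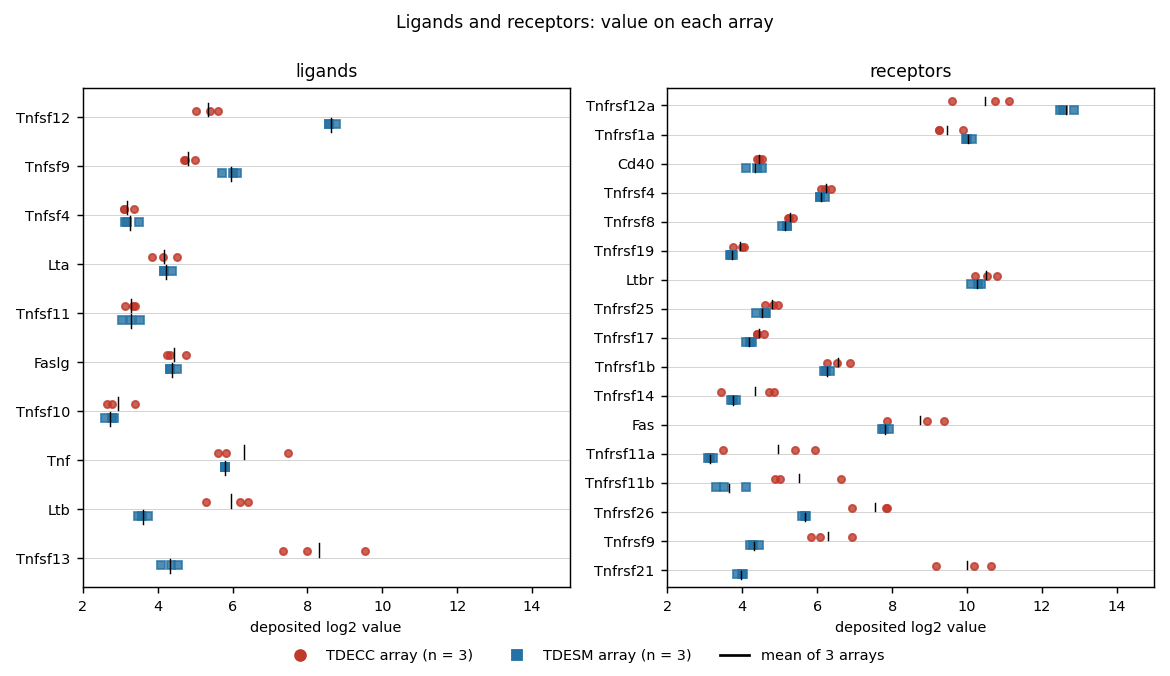
Deposited log2 value (horizontal axis) of the 10 ligands and 17 receptors on each of the 3 TDECC arrays (circles) and 3 TDESM arrays (squares), with black ticks at the means. Tnfrsf21 and Tnfsf13 lie to the right in TDECC, and Tnfsf12 and Tnfrsf12a lie to the right in TDESM.

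Of the 17 receptors, 5 were lower in TDESM and 1 was higher. The number of lower receptors was 8 without TDECC replicate 1 and 3 without TDESM replicate 2 or 3, and a further receptor passed as higher without TDECC replicate 2. Tnfrsf21 encodes death receptor 6 and had the greatest decrease of the 61 genes. It read 9.16, 10.19 and 10.64 on the TDECC arrays and 4.01, 4.0 and 3.85 on the TDESM arrays. The strains did not overlap. The difference was -6.04 (SE 0.35, limma adjusted p = 1.35e-05), about 66-fold, and a further probe set gave -6.89. The TDESM values lay not far above the absent TrpnX control (2.87 to 3.23 in TDESM), so the fold is only a rough size.

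Tnfrsf12a, the Fn14 receptor of TWEAK, was the receptor that was higher in TDESM. It was bright in both strains, at 10.74, 11.11 and 9.61 in TDECC and 12.48, 12.56 and 12.86 in TDESM. The strains did not overlap, and TDECC replicate 3 was the lowest array. The difference was 2.15 (SE 0.37, limma adjusted p = 0.00305). Ligand and receptor of the TWEAK pair were thus both higher in the fibroblast strain, also after poly-A centring (2.08 for Tnfsf12 and 0.93 for Tnfrsf12a, both past the threshold).

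Tnfrsf9 (4-1BB), the receptor of Tnfsf9, read 6.94, 5.83 and 6.07 in TDECC and 4.29, 4.44 and 4.2 in TDESM, a difference of -1.97 (SE 0.28, limma adjusted p = 0.00129). Its ligand Tnfsf9 was higher in TDESM on the deposited scale, so the pair differed in opposite directions there. Tnfrsf26, a rodent receptor gene, read 7.86, 7.83 and 6.94 against 5.68, 5.60 and 5.70, with a difference of -1.88 (SE 0.25, limma adjusted p = 9.47e-04). In neither gene did the strains overlap.

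Tnfrsf11b and Tnfrsf11a, the decoy receptor osteoprotegerin and the signalling receptor RANK for Tnfsf11, passed with wider spread. Tnfrsf11b read 4.88, 5.00 and 6.63 against 4.11, 3.50 and 3.30 (difference -1.87, SE 0.48, limma adjusted p = 0.0180). Without TDESM replicate 2 or 3 its limma adjusted p was 0.0671 or 0.0751. Tnfrsf11a read 3.48, 5.41 and 5.95 against 3.07, 3.13 and 3.22 (difference -1.81, SE 0.58, limma adjusted p = 0.0425), and its TDECC replicate 1 lay close to the TDESM arrays. That call was lost without TDECC replicate 2 (0.113) or 3 (0.103) and without TDESM replicate 1 (0.114), 2 (0.115) or 3 (0.110), as limma adjusted p, and under eBayes with trend and robust settings (0.0631).

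The main TNF and Fas receptors did not pass. Tnfrsf1a, the broadly expressed death-domain receptor for TNF, read 9.26, 9.89 and 9.26 in TDECC and 9.99, 10.14 and 9.96 in TDESM without overlap (difference 0.56, SE 0.20, limma adjusted p = 0.0560). It passed without TDECC replicate 2 (0.77, limma adjusted p = 0.00381) and after housekeeping centring (0.81, 0.00789). With the dimmest genes left out it also passed (limma adjusted p = 0.0487), and its sign turned after poly-A centring (-0.66). Fas was read by a probe set that can also bind related transcripts, at 7.87, 8.94 and 9.38 against 7.74, 7.79 and 7.92 (difference -0.91, limma adjusted p = 0.0825). TDECC replicate 1 overlapped the TDESM arrays, and without it the difference was -1.34 (limma adjusted p = 0.00105). The other Fas probe sets, which were dimmer, differed by 0.00 and -0.34, and the mean of all 3 by -0.42 (limma adjusted p = 0.183). Tnfrsf1b, the second TNF receptor, read 6.26, 6.88 and 6.54 against 6.19, 6.22 and 6.35 (-0.31, limma adjusted p = 0.212, and 0.0471 without TDECC replicate 1). Tnfrsf14 (HVEM) differed by -0.57 (limma adjusted p = 0.253), and without TDECC replicate 1 by -1.01 (8.50e-04).

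Ltbr, the lymphotoxin receptor, was high in both strains at 10.22, 10.79 and 10.54 against 10.11, 10.30 and 10.36 (-0.26, limma adjusted p = 0.280). Cd40 read between 4.09 and 4.53 on all arrays. The other receptors, Tnfrsf17, Tnfrsf25, Tnfrsf19, Tnfrsf8 and Tnfrsf4, differed by -0.27 to -0.12 without passing.

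Of the 11 TRAF genes, 4 were lower in TDESM and 2 were higher, against 20.6% lower and 22.1% higher of all genes. Traf5, an adaptor of CD40, OX40 and lymphotoxin receptor signalling, stood out among the TRAF genes. It read 4.77, 4.53 and 4.96 in TDECC and 9.18, 9.25 and 9.26 in TDESM, with means of 4.75 ± 0.22 and 9.23 ± 0.04 (SD, n = 3). The strains were far apart, with a difference of 4.48 (SE 0.14, limma adjusted p = 7.79e-07), about 22.3-fold. Trafd1, a TRAF-type zinc finger protein, differed by 0.48 (SE 0.13, limma adjusted p = 0.0190), a call lost with any 1 TDESM replicate left out (limma adjusted p 0.0551 to 0.0699) and turned to -0.74 by poly-A centring.

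Traf3ip2 (Act1, the adaptor of interleukin-17 receptors) read 8.40, 8.74 and 8.14 against 6.45, 6.44 and 6.66, a difference of -1.91 (SE 0.18, limma adjusted p = 1.52e-04). Traf3ip1, a protein of the ciliary transport machinery that binds Traf3, read 7.99, 7.80 and 8.27 against 6.53, 6.75 and 6.56 (-1.41, SE 0.16, limma adjusted p = 3.74e-04). Traf4, a TRAF with roles at epithelial junctions, read 10.04, 9.83 and 10.14 against 8.82, 8.85 and 8.91 (-1.14, SE 0.13, limma adjusted p = 3.72e-04). In these genes every TDECC array stood above every TDESM array.

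Traf2, the adaptor that links TNF receptors to Birc2 and Birc3, was lower by a small amount at 7.78, 7.96 and 7.61 against 7.30, 7.30 and 7.47 (-0.43, SE 0.14, limma adjusted p = 0.0415). This call was lost under loess scaling (limma adjusted p = 0.0642), housekeeping centring (-0.18), and eBayes with trend and robust settings (0.0694), and when any 1 array other than TDECC replicate 3 was left out (limma adjusted p 0.0627 to 0.141). Traf3 read 8.64, 7.94 and 7.84 against 7.59, 7.49 and 7.69 and did not pass (-0.55, limma adjusted p = 0.0894), although the mean of its probe sets did (0.0216). Traf1, Traf6, Traf7 and Traf3ip3 differed by 0.03 to 0.30 and did not pass.

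**Figure D3:**
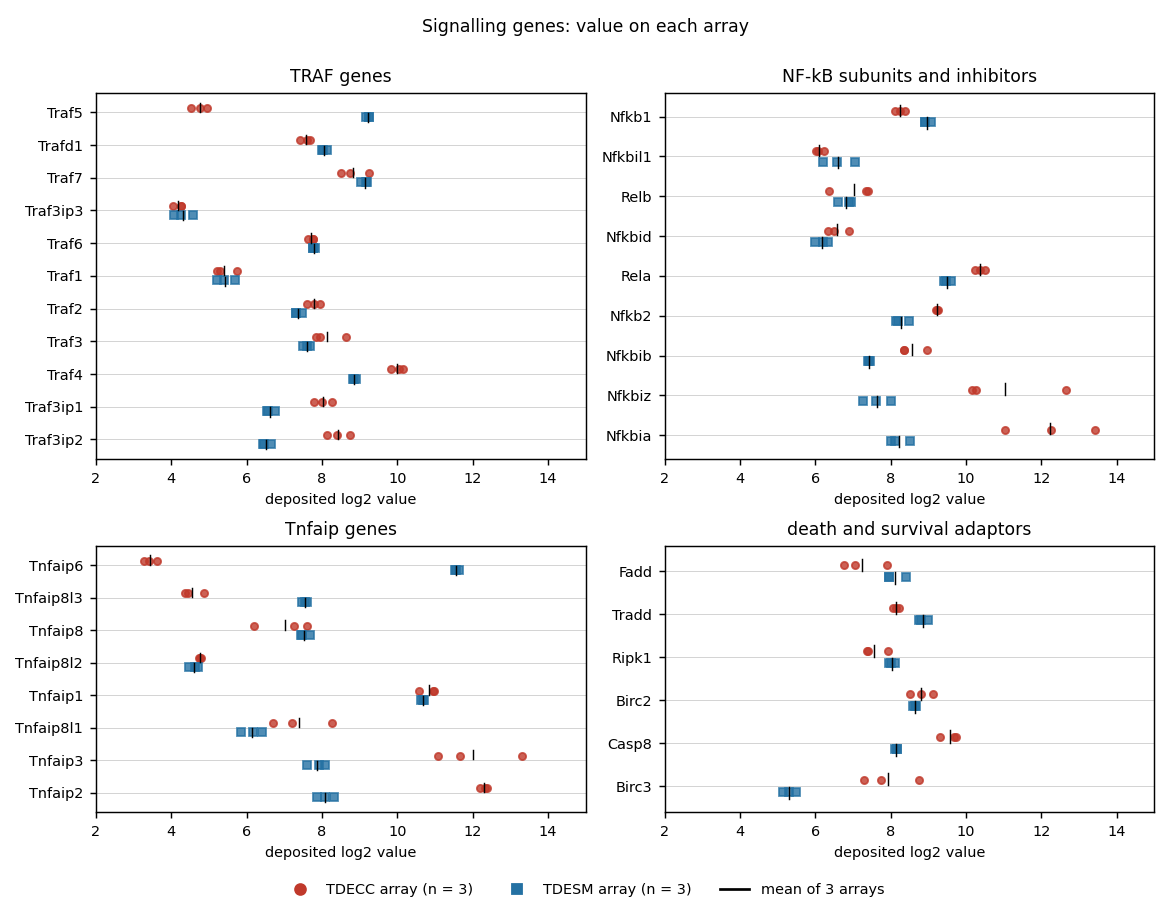
Deposited log2 value (horizontal axis) of the 11 TRAF genes, 9 NF-kB subunits and inhibitors, 8 Tnfaip genes and 6 adaptors on each of the 3 TDECC arrays (circles) and 3 TDESM arrays (squares), with black ticks at the means. Traf5 and Tnfaip6 lie to the right in TDESM, while Nfkbia, Nfkbiz, Tnfaip2 and Tnfaip3 lie to the right in TDECC with wide spread for all but Tnfaip2.

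Of the 9 NF-kB subunits and inhibitors, 5 were lower in TDESM and 1 was higher, against 20.6% lower and 22.1% higher of all genes. The greatest differences were those of the IkB genes Nfkbia and Nfkbiz. Nfkbia encodes IkB-alpha, which holds Rela in the cytoplasm. It read 11.02, 12.25 and 13.41 in TDECC and 8.01, 8.12 and 8.51 in TDESM, with means of 12.23 ± 1.20 and 8.21 ± 0.26 (SD, n = 3). The difference of -4.01 (SE 0.55, limma adjusted p = 0.00102) exceeded the spread of TDECC, where replicate 3 was the highest. Nfkbiz encodes IkB-zeta, a nuclear regulator of secondary response genes. Its brightest probe set read 10.27, 10.15 and 12.66 against 8.01, 7.61 and 7.26 (-3.40, SE 0.65, limma adjusted p = 0.00504). A dimmer Nfkbiz probe set differed by -0.18 only, and the mean of both by -1.79.

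Nfkbib (IkB-beta) read 8.95, 8.36 and 8.36 against 7.41, 7.40 and 7.46 (-1.13, SE 0.18, limma adjusted p = 0.00225). The DNA-binding subunits moved by 1 log2 unit or less. Nfkb2, the p100 precursor of p52, read 9.23, 9.21 and 9.26 against 8.18, 8.15 and 8.49 (-0.96, SE 0.13, limma adjusted p = 0.00111). Rela (p65) read 10.51, 10.37 and 10.23 against 9.47, 9.41 and 9.61 (-0.87, SE 0.13, limma adjusted p = 0.00149). Nfkb1, the p105 precursor of p50, ran the other way at 8.11, 8.37 and 8.24 against 8.91, 8.91 and 9.06 (0.72, SE 0.12, limma adjusted p = 0.00312), which became -0.50 after poly-A centring. The strains did not overlap for any of these subunits.

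Relb, the partner of p52, read 6.37, 7.40 and 7.33 against 6.6, 6.95 and 6.90 and overlapped (-0.22, limma adjusted p = 0.596), although without TDECC replicate 1 it differed by -0.55 (limma adjusted p = 0.0254). Nfkbid (-0.40) and Nfkbil1 (0.49) did not pass. Nfkbil1 passed as higher without TDESM replicate 1 and after housekeeping centring (0.74, limma adjusted p = 0.0156). Either change brought the higher genes of this role to 2.

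The Tnfaip genes, only some of them named for their own induction by TNF, held the greatest increase and several of the greatest decreases. Of 8 genes, 3 were lower and 2 were higher, against 20.6% lower and 22.1% higher of all genes, so the higher count was near its background share. Tnfaip6 encodes TSG-6, a secreted protein that binds hyaluronan and modifies matrix. It read 3.40, 3.62 and 3.27 in TDECC and 11.63, 11.55 and 11.53 in TDESM, with means of 3.43 ± 0.18 and 11.57 ± 0.05 (SD, n = 3). The difference was 8.14 (SE 0.13, limma adjusted p = 1.21e-07). The mean TDECC level lay within the range of the absent TrpnX control, so no fold is given. A further Tnfaip6 probe set gave 3.83, and the mean of both 5.99. Tnfaip8l3, a carrier of phosphoinositides of the TIPE family, read 4.37, 4.44 and 4.87 against 7.46, 7.54 and 7.61 (2.98, SE 0.16, limma adjusted p = 9.64e-06).

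Tnfaip2 and Tnfaip3 went the opposite way and were bright in TDECC. Tnfaip2, a gene of cell protrusions and nanotubes, read 12.39, 12.19 and 12.34 against 7.86, 8.08 and 8.31 (-4.22, SE 0.15, limma adjusted p = 1.28e-06). Of its other probe sets, 2 gave -3.18 and -2.86 and 1 gave -0.16 without passing, for a mean over probe sets of -2.61. Tnfaip3 encodes A20, the ubiquitin-editing brake on NF-kB. It read 11.09, 11.66 and 13.32 against 7.59, 7.91 and 8.08, with means of 12.02 ± 1.16 and 7.86 ± 0.25 (SD, n = 3). The strains did not overlap despite the spread in TDECC (-4.16, SE 0.53, limma adjusted p = 7.34e-04).

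Tnfaip8l1 read 8.26, 6.71 and 7.21 against 6.18, 5.85 and 6.40 (-1.25, SE 0.38, limma adjusted p = 0.0355). Without TDECC replicate 3 (0.0615) or TDESM replicate 1 (0.0924), 2 (0.125) or 3 (0.0721) its limma adjusted p missed the threshold, as it did after housekeeping centring (0.0631). Tnfaip1, Tnfaip8 and Tnfaip8l2 did not pass.

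Of the 6 adaptors, Birc3 and Casp8 were lower and Tradd was higher, against 20.6% lower and 22.1% higher of all genes. With so few genes these counts do not differ clearly from those shares. Birc3 (cIAP2), a ubiquitin ligase of the TNF receptor complex, read 7.28, 7.75 and 8.76 against 5.14, 5.47 and 5.31 (-2.62, SE 0.36, limma adjusted p = 9.90e-04). Its neighbour and paralogue Birc2 (cIAP1) differed by -0.18 and did not pass. Casp8, the initiator protease of death receptors, read 9.68, 9.72 and 9.3 against 8.11, 8.16 and 8.17 (-1.42, SE 0.15, limma adjusted p = 2.60e-04). Tradd, the first adaptor on Tnfrsf1a, read 8.21, 8.13 and 8.05 against 8.80, 8.75 and 9.0 (0.72, SE 0.12, limma adjusted p = 0.00307), or -0.50 after poly-A centring.

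Fadd, the bridge between death receptors and Casp8, read 7.91, 7.05 and 6.75 against 7.95, 7.96 and 8.40 (0.87, limma adjusted p = 0.0583) and passed without TDECC replicate 1 (1.20). Ripk1, the kinase that splits survival from death signalling, read 7.38, 7.92 and 7.40 against 7.96, 8.01 and 8.12 (0.46, limma adjusted p = 0.0712) and passed without TDECC replicate 2. Either of these exclusions brought the higher adaptors to 2. Fadd and Ripk1 both passed as higher under loess scaling (limma adjusted p = 0.0282 and 0.0485) and housekeeping centring (0.0138 and 0.0072), which brought the higher adaptors to 3. Ripk1 also passed as the mean of its probe sets (0.0291), and Fadd with the dimmest genes left out (0.0448). After poly-A centring Fadd stood at -0.35 and Ripk1 at -0.76.

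Where a gene had several probe sets, they could differ in size. Of the 81 probe sets, 11 were higher and 28 lower in a fit over all probe sets (48.1%, against 36.9% of all probe sets, 17.9% higher and 19.0% lower). Of the 15 genes with more than 1 probe set, 5 (Nfkbiz, Tnf, Tnfaip2, Traf3 and Traf6) held both a probe set that passed and one that did not. No gene held probe sets that passed in opposite directions.

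**Figure D4:**
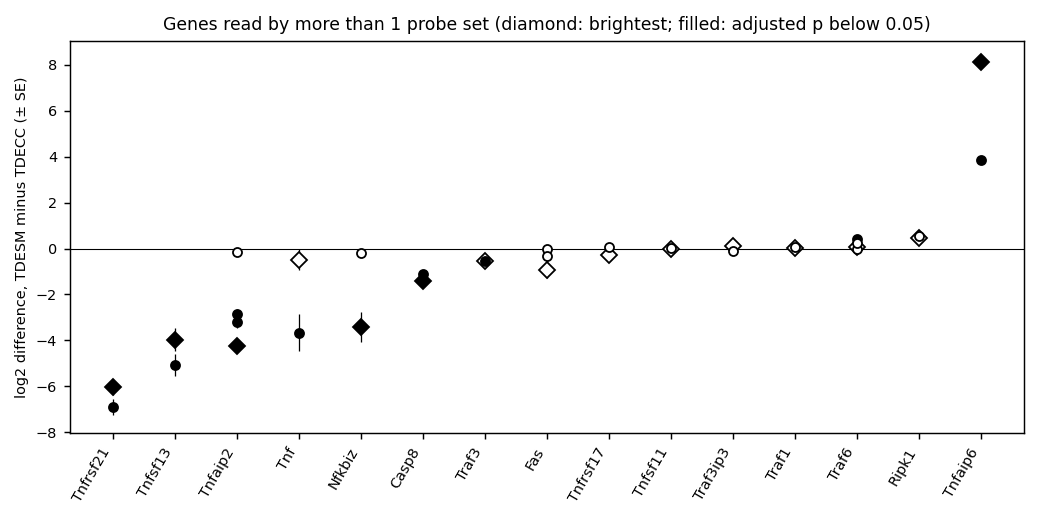
Log2 difference (vertical axis, TDESM minus TDECC, ± SE, n = 3 arrays each) of each probe set of the 15 genes read by more than 1. Diamonds mark the brightest probe set and filled symbols a limma adjusted p below 0.05; the probe sets of Tnfaip6 stand at 8.14 and 3.83 and those of Nfkbiz at -3.40 and -0.18.

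The promoters of the NF-kB genes are shown because several of the genes with large differences are known targets of the factor they regulate. RefSeq sequences of GRCr8 from 250 bases before to 50 bases after the annotated start were found for 48 of the 61 genes. The motif GGGNNTTTCC, a simplified form of the NF-kB site with any base allowed at N, was searched on both strands. It was found in windows of 8 of the 48 genes (16.7%), against 1.62% of 27457 genes with a window and 1.85% of the 11701 such genes on the array. Of the 8 genes, Ltb, Nfkb2, Nfkbia, Nfkbiz and Tnfaip3 were lower in TDESM, Nfkb1 was higher, and Tnfrsf4 and Traf3 did not pass. A match is a description of letters, and no binding was measured. The stretches below run 5′ to 3′ along the gene's strand with the motif, or its reverse complement, in capitals.
Tnfaip3, chr1:15544000-15544071, minus strand: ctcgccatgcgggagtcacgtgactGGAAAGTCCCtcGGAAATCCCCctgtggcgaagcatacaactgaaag
Nfkbia, chr6:78597073-78597143, minus strand: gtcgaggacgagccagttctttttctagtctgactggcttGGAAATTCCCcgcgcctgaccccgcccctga
Nfkbiz, chr11:58251668-58251720, plus strand: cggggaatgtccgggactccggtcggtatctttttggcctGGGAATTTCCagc
Ltb, chr20:3634055-3634119, minus strand: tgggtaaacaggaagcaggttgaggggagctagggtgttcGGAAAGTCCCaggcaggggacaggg
Nfkb2, chr1:255108314-255108373, plus strand: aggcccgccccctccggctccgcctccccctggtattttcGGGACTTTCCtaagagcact
Nfkb1, chr2:226805450-226805479, minus strand: tctgctctctcgacgtcagtGGGAATTTCC

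The Tnfaip3 window held 2 matches a few bases apart, at -67 to -58 and -55 to -46 from the start, and it was the only one of these windows with more than 1. Matches in Nfkbia (-31 to -22), Ltb (-25 to -16), Nfkb2 (-20 to -11) and Nfkbiz (-13 to -4) lay just before the start, and the match in Nfkb1 lay at 4 to 13 after it. In expression, Nfkbia, Nfkbiz and Tnfaip3 shared a high level in TDECC and a spread over its arrays, while Nfkb2 read 9.21 to 9.26 on the same arrays and spread little.

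A larger share of these genes than of all genes spread widely over the TDECC arrays. This was looked at after the values were seen and is given without a test. Over the 3 TDECC arrays 18 of the 61 genes (29.5%) spanned 1 log2 unit or more, against 13.9% of all genes, and over the TDESM arrays none did, against 0.239% of all genes. Most of the 61 genes, and all 11 TRAF genes, spanned less over the TDECC arrays. The median SD over these arrays was 0.29 for the 61 genes and 0.24 for all genes. On TDECC replicate 3, Tnf, Tnfrsf11a, Tnfrsf11b, Nfkbia, Nfkbiz, Tnfaip3 and Birc3 stood at least 1 log2 unit above the mean of the other TDECC arrays. These are 7 of 61 genes (11.5%), against 1.84% of all genes, and 1 gene, Tnfrsf12a, stood as far below. On TDECC replicate 1, 10 of the 61 genes (16.4%) stood at least 1 unit below the mean of the others, among them Nfkbia, Nfkbiz, Tnfaip3, Tnfrsf21 and Fas, against 3.07% of all genes. Each array is set against the mean of the others, so a gene high on 1 array is pushed low on the rest. Nfkbia, Nfkbiz, Tnfaip3 and Tnfrsf11a entered both counts, which are therefore not separate results.

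A list of 29 other measured NF-kB target genes had a similar feature on TDECC replicate 3. The list was drawn up with earlier results of these arrays known, so its counts are not independent evidence of this spread. On TDECC replicate 3, 10 of the 29 genes (34.5%, against 1.84% of all genes) stood at least 1 unit above the mean of the other TDECC arrays. They were Ccl20, Cxcl1, Cxcl2, Cxcl10, Il1a, Vcam1, Ptgs2, Ier3, Irf1 and Plau, while Mmp13 stood as far below. On replicate 1, 7 genes (24.1%, against 3.07% of all genes) stood as far below and 1 as far above. On replicate 2, 7 (24.1%, against 1.97%) stood as far below and 2 as far above. These counts are not separate results, since each array is set against the mean of the others. Ccl20, Cxcl10, Vcam1, Ptgs2 and Irf1, low on replicate 1, were already counted as high on replicate 3. So were Cxcl1, Cxcl2, Cxcl10, Il1a, Ier3 and Plau, low on replicate 2. Cxcl2, a neutrophil chemokine, read 9.70, 8.17 and 12.67 on the TDECC arrays. The epithelial marker Krt19 read 14.14, 14.52 and 14.34 there, and the summed log2 values of the 12 fibroblast markers were 60.19, 59.26 and 60.83. The summed leukocyte markers were 79.79, 80.06 and 84.46, highest on replicate 3, and Acta2 was also highest on it. The part of these markers in the spread was not tested.

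**Figure D5:**
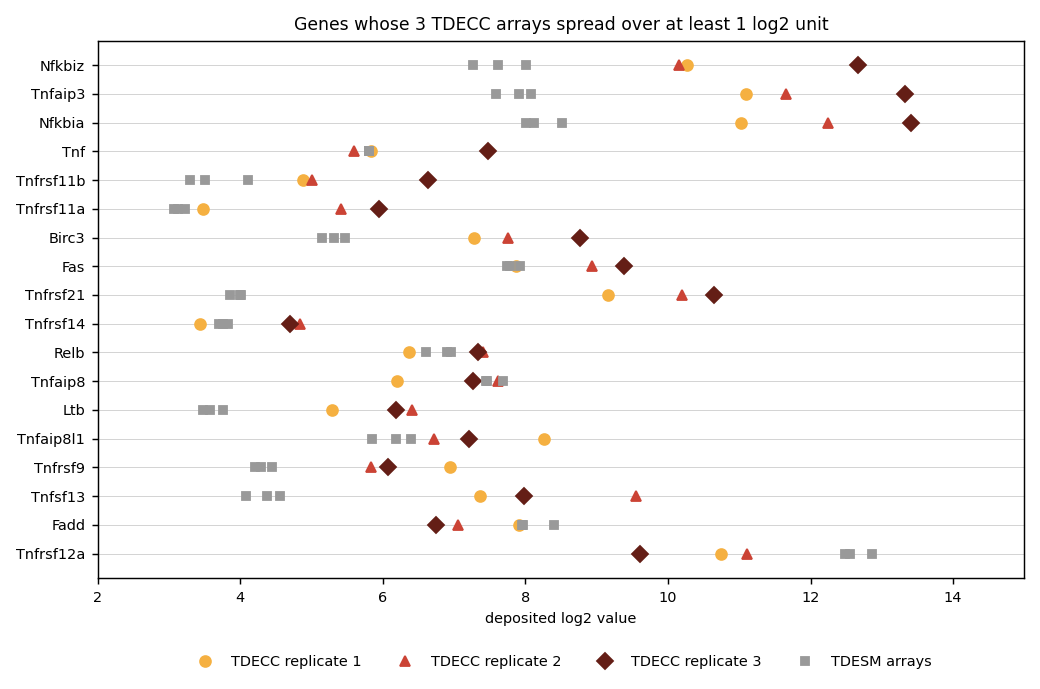
Deposited log2 value (horizontal axis) of the 18 genes that span at least 1 log2 unit over the TDECC arrays, by TDECC replicate, with the 3 TDESM arrays in grey. TDECC replicate 3 (diamonds) is the highest array for Nfkbiz (12.66), Tnfaip3 (13.32), Nfkbia (13.41) and Birc3 (8.76), and the lowest for Tnfrsf12a (9.61).

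Other steps of the pathway were read from lists of genes chosen for their known roles. Of 19 measured genes of the IKK complex and its ubiquitin and adaptor steps, 8 were lower in TDESM (42.1%, against 20.6% of all genes) and 3 were higher (15.8%, against 22.1%), with a median difference of -0.43. With any 1 TDESM replicate left out, the count past the threshold fell from 11 to 6. That is 31.6% of the list, near the 32.4% to 34.0% of all genes that then passed. The lower genes then numbered 4 (21.1%), against 14.99% to 16.38% of all genes. Bcl3, a nuclear IkB protein that binds p50 and p52, differed by -4.98 (limma adjusted p = 5.46e-06, or -2.52 as the mean of its probe sets). Card10, a scaffold that feeds receptor signals into the IKK complex, differed by -4.57 (limma adjusted p = 1.43e-06). The catalytic kinase Ikbkb differed by -2.36 (limma adjusted p = 3.55e-04, or -1.58 as the mean of its probe sets). Myd88 (1.01), Irak1 (0.67, or 0.45 as the mean of its probe sets) and Tab2 (0.35) were higher. They act below Toll-like and interleukin-1 receptors. After poly-A centring no gene of the list was higher.

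Of 10 measured genes of death receptor execution, 3 were lower and 2 were higher, near what the 20.6% lower and 22.1% higher of all genes would give, and the higher ones numbered 4 without TDECC replicate 1. Cflar, the decoy that blocks Casp8, differed by -2.16 (limma adjusted p = 0.00191, or -1.34 as the mean of its probe sets). Bid, a Casp8 substrate that links to mitochondria, differed by -1.82 (limma adjusted p = 0.00128). Casp6, an executioner protease, differed by -0.81. Casp9 (0.82) and Apaf1 (0.67), partners in the apoptosome, were higher, again not after poly-A centring. As the mean of its probe sets each differed by 0.53. Of 4 measured superfamily genes with other symbols (Relt, Cd40lg, Ngfr and Eda) none passed by limma, and Eda came nearest with 0.56 (limma adjusted p = 0.069), while 1 passed without TDECC replicate 3.

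Of the 29 NF-kB target genes, 11 were lower in TDESM (37.9%, against 20.6% of all genes) and 2 were higher (6.90%, against 22.1%), with a median difference of -1.30 against 0.003 for all genes. The decreases were led by Plau (-7.73, limma adjusted p = 2.94e-05), the urokinase plasminogen activator, Il1a (-7.43, limma adjusted p = 3.65e-05), an interleukin-1 ligand, and Cxcl2 (-6.54, limma adjusted p = 0.00187). Il6 (2.52, limma adjusted p = 4.80e-05) and the monocyte chemokine Ccl2 (2.26, limma adjusted p = 4.69e-05) were higher in TDESM. Without TDECC replicate 3 the higher genes numbered 4. The list was drawn up with earlier results of these arrays known, and its counts are not independent evidence of a direction.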

How the data were processed

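Labelled cRNA from total RNA was hybridised to 1-colour Affymetrix rat arrays. The authors deposited log2 values made with RMA, per the submitters' processing notes; its version and settings are not given in the sources used here. Intensities before RMA and detection calls were not used here, and the number of arrays, not a read depth, limits the precision. Of 31099 probe sets, 57 controls were left out of the tests. Of the rest, 20826 had 1 gene symbol in GEO's platform annotation, 436 had several and 9780 were not listed, and only the first were named. Each of 14217 genes was read from the brightest of its probe sets, by the mean of all 6 arrays, whatever the strain.

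Strains were compared as TDESM minus TDECC with lmFit and eBayes of limma 3.58.1 in R 4.3.3, and p-values were adjusted over all genes by Benjamini-Hochberg with a threshold of 0.05. The scripts were tested on simulated data. Alternatives were cyclic loess, centring on housekeeping genes or poly-A controls, a fit over probe sets, the mean of a gene's probe sets, dropping the 33.3% of genes with the lowest signal, eBayes with trend and robust, a replicate block, and leaving out each array. Members and gene lists were chosen with earlier results of these data known. Values on every array were given for genes past the threshold by at least 1 log2 unit, up to 4 each way in a role, and for receptors, subunits and adaptors at the core of the pathway. Some further genes were added after their values were seen. Promoter sequences are from RefSeq GRCr8.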

Additional observations from a re-analysis of the deposited data

How the results depend on the processing

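Of the 30 genes past the threshold, 22 kept their call and direction under each of the 14 alternatives in which they were tested, and 25 kept it with each array left out. Centring on poly-A controls changed the counts most: 53 of the 61 genes passed (5 higher, 48 lower), as did 11771 of all genes (898 higher, 10873 lower), 3 superfamily genes with other symbols (3 lower), 17 genes of the IKK list (0 higher, 17 lower), 8 of the death list (0 higher, 8 lower) and 28 NF-kB targets (26 lower). It turned the sign of Lta (-1.16), Tnfsf4 (-1.13), Tnfsf9 (-0.085), Tnfrsf1a (-0.66), Traf1 (-1.19), Traf6 (-1.16), Traf3ip3 (-1.11), Traf7 (-0.92), Trafd1 (-0.74), Nfkbil1 (-0.73), Nfkb1 (-0.50), Tnfaip8 (-0.71), Ripk1 (-0.76), Tradd (-0.50) and Fadd (-0.35). Housekeeping centring left 7 genes of the IKK list (4 lower), gave 1 higher superfamily gene with another symbol, as did loess (1 higher), and turned the sign of Tnfsf10 (0.045), Faslg (0.19), Tnfsf11 (0.23), Tnfrsf19 (0.038), Tnfrsf8 (0.12), Tnfrsf4 (0.13), Cd40 (0.13), Relb (0.032), Tnfaip1 (0.082), Tnfaip8l2 (0.10) and Birc2 (0.072), none of which had passed. Loess turned Tnfsf11 (0.0099). The fit over probe sets, which tests more features, called 11470 (5559 higher, 5911 lower). Without the dimmest 33.3% of genes, which leaves out Il6 and Ccl2, 0 NF-kB targets were higher. Where no value is given for why a result moved, the cause was not tested.

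With a replicate block, 28 of the 61 genes passed (8 higher, 20 lower). Traf2 (limma adjusted p = 0.113) and Trafd1 (0.0534) lost their calls, and the IKK list kept 6 (4 lower). Same-numbered arrays of the strains correlated at -0.07, 0.02 and -0.14 in their deviations, and differently numbered ones at -0.14 to 0.15. These values show no pairing by number, but with so few arrays they cannot exclude it.

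Leaving out each array gave 0 to 1 superfamily genes with other symbols (0 to 1 higher), 6 to 9 genes of the IKK list (4 to 7 lower), and 2 to 4 higher genes both in the death list and among NF-kB targets. It let the sign vary for genes that had not passed: Tnf (-0.84 to 0.10), Tnfsf10 (-0.35 to 0.022), Faslg (-0.15 to 0.10), Tnfsf11 (-0.14 to 0.10), Lta (-0.10 to 0.23), Tnfsf4 (-0.032 to 0.18), Cd40 (-0.22 to 0.005), Traf1 (-0.10 to 0.19) and Traf3ip3 (-0.022 to 0.22).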
